A study of Mus musculus with 6 samples.

Results

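The genes described here are 10 SOCS-box genes: 6 suppressors of cytokine signalling (Socs1, Socs2, Socs3, Socs4, Socs5 and Socs7), their relative Cish, and 3 SPRY-domain SOCS-box genes (Spsb1, Spsb2 and Spsb3). They were chosen by gene symbol from the 19390 symbols of the deposited count table, and all 10 had a row and passed the filter on low counts. The choice was made with the KO against WT results of these libraries known, so every difference between the groups given for these genes is a description and supports nothing by itself. RNA was sequenced from γδ T cells, lymphocytes whose antigen receptor is made of γ and δ chains, sorted from the spleens of mice aged 6 weeks. The 3 KO libraries were taken as USF3-f/f; CD2-cre mice and the 3 WT libraries as USF3-f/f mice. Both groups therefore carried floxed Usf3 alleles, and the KO group alone carried the CD2-cre transgene, which expresses Cre recombinase in lymphoid cells, so the transgene and the deletion cannot be told apart. The labels do not say whether each library came from 1 animal or from pooled animals, and with no such statement the spread between libraries may be technical.

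SOCS proteins and CIS, the product of Cish, are feedback brakes on cytokine receptors. Cytokines activate JAK kinases and STAT transcription factors, STATs induce several SOCS genes, and the SOCS proteins then bind the receptor or its JAK through an SH2 domain. Their SOCS box recruits elongin B, elongin C and cullin 5, which together form a ubiquitin ligase. The SPSB proteins carry the same box behind a SPRY domain, which takes the place of the SH2 domain and binds other proteins. In T cells, SOCS1 limits interferon-γ and common γ chain cytokine signals, SOCS3 limits gp130 and IL-12 receptor signals, and CIS limits IL-2, IL-15 and antigen receptor signals.

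The libraries held 34644862 to 35806402 counts, and 12810 genes were tested. Usf3, the targeted gene, stood at 72.0, 65.9 and 67.5 CPM (counts per unit of library size after TMM scaling) in KO replicates 1, 2 and 3, against 70.2, 72.7 and 73.8 CPM in WT replicates 1, 2 and 3. The groups overlapped, and Usf3 did not pass the test (log2 fold change -0.08 ± 0.043, SE; edgeR quasi-likelihood, Benjamini-Hochberg adjusted p = 0.261). No label names the floxed exons, so a count over the whole gene does not check the labels. The T cell genes Cd3g and Cd3e, the most abundant of the 6 γδ T cell markers with a row, averaged 340 ± 10.7 and 328 ± 4.56 CPM in KO and 382 ± 7.07 and 346 ± 4.05 CPM in WT libraries (SD, n = 3 each). Constant-region genes of the γδ receptor were not analysed here. Of these 6 markers, 4 were called lower by edgeR, Cd3g, Cd3e, Cd3d and Blk, with log2 fold changes of -0.17, -0.08, -0.12 and -1.15. Markers of B, myeloid, erythroid and platelet cells were scarce. B cell markers summed to 5.95 to 7.85 CPM in KO and 6.77 to 7.16 CPM in WT libraries over 10 genes, of which Cd79b and Fcer2a were the most abundant. Erythroid and platelet markers, led by Pf4 and Hba-a1, summed to at most 0.892 CPM in KO and 0.256 CPM in WT libraries over 4 genes. Markers of αβ T and NK cells, led by Klrb1c and Cd8b1, summed to 101 to 106 CPM in KO and 105 to 111 CPM in WT libraries over 6 genes. Of their 5 tested genes, 2 were called lower, Foxp3 at -0.56 (8.31 CPM in KO and 12.3 CPM in WT libraries) and Ncr1 at -0.93.

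Within the group, Spsb1 was higher in KO libraries, Socs3, Socs1 and Socs2 were lower, and Cish, by far the most abundant member, stood at the same level in both. Spsb1 was 4.16-fold higher, and the 3 lower genes were 16.1% to 28.5% below WT. The other 5 members, Socs4, Socs5, Socs7, Spsb2 and Spsb3, differed by less than the edgeR fit could resolve. In all, 1 of 10 members was called higher and 3 were called lower at an adjusted p under 0.05, where 7.23% and 10.1% of all tested genes were called in these directions. Groups did not overlap for 5 members, against 32.1% of all tested genes. The median log2 fold change of the members was -0.02, and that of all tested genes was 0.0014. In bulk RNA, fewer cells that express a gene and less RNA per cell cannot be told apart, here and in every comparison that follows.

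**Figure D1:**
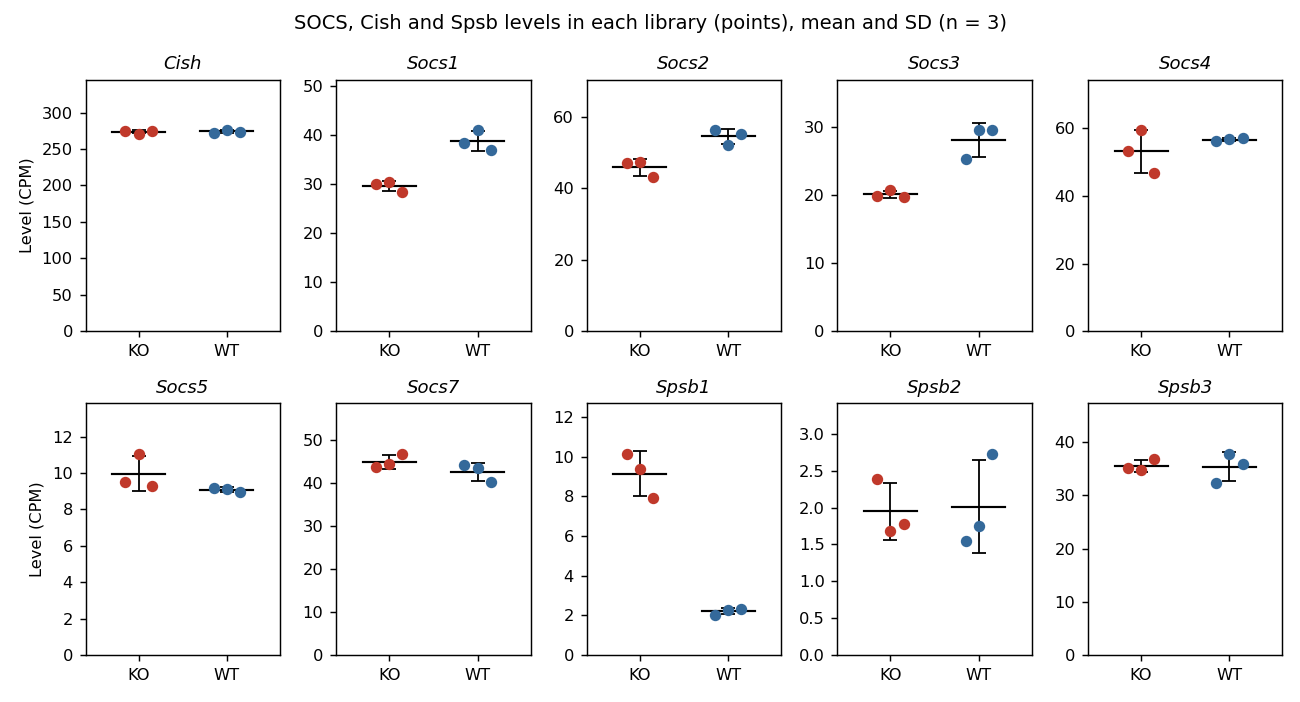
Level of each of the 10 members in CPM, with KO libraries left and WT libraries right; points are libraries, and bars are the mean and SD (n = 3 each). Spsb1 lies at 7.91 CPM or more in KO and at or below 2.30 CPM in WT libraries, Socs1, Socs2 and Socs3 lie lower in KO, and Cish is level.

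Levels between genes were compared per transcript length, as the deposited FPKM (counts scaled by library total and gene length). In order of their level in WT libraries, the members were Cish, Socs1, Spsb3, Socs3, Socs4, Socs7, Socs2, Spsb2, Socs5 and Spsb1. Cish averaged 63.9 ± 0.672 FPKM in KO and 63.6 ± 0.411 FPKM in WT libraries (SD, n = 3 each), above 91.2% of tested genes in WT. It alone made up 50.3% of the summed FPKM of the 10 members in KO and 47.1% in WT libraries. Socs1 came next, at 22.2 ± 0.793 FPKM in KO and 28.8 ± 1.57 FPKM in WT libraries. At the low end, Spsb1 averaged 2.34 ± 0.294 FPKM in KO and 0.558 ± 0.0375 FPKM in WT libraries, so that the lowest member in WT ranked 8 of 10 in KO. Only Spsb3 and Socs3, at 11.4 ± 0.871 and 10.3 ± 0.870 FPKM in WT, were neighbours whose WT ranges overlapped. The scale matters most for Socs2, for which the deposited FPKM imply a length of 13080 bp against 1340 bp for Socs1. Socs2 thus had more counts than Socs1 in every library but a lower FPKM.

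**Figure D2:**
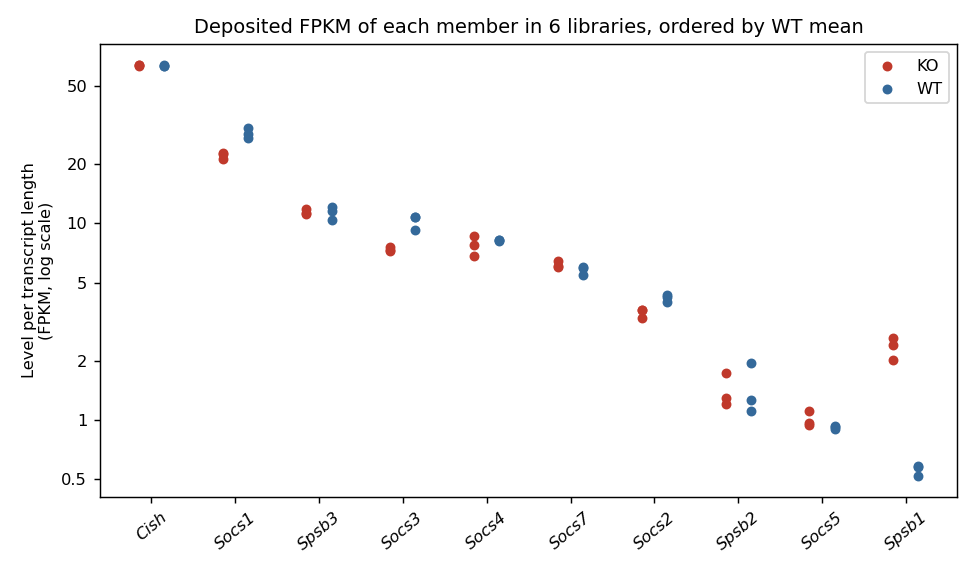
Deposited FPKM (log scale) of each member in the 3 KO and 3 WT libraries, ordered from left to right by the WT mean. Cish is the highest in both groups, near 64 FPKM, and Spsb1 is the lowest in WT libraries only.

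Socs1 encodes the brake on interferon-γ signalling that binds JAK kinases and also blocks them through a kinase inhibitory region. It stood at 29.9, 30.5 and 28.4 CPM in KO replicates 1, 2 and 3, against 38.4, 41.0 and 36.9 CPM in WT replicates 1, 2 and 3. All KO libraries lay below all WT libraries. The log2 fold change was -0.39 ± 0.057 (SE), which is 23.6% lower, with a 95% interval from -0.51 to -0.27. Socs3, whose product blocks JAKs bound to gp130 and related receptors, stood at 19.9, 20.7 and 19.7 CPM in KO libraries, against 25.3, 29.6 and 29.5 CPM in WT libraries. Here too every KO library was below every WT library, and the WT spread (coefficient of variation 8.73%) was wider than the KO spread (2.76%). Its log2 fold change of -0.48 ± 0.070 (95% interval -0.63 to -0.34), 28.5% lower, was the largest decrease in the group. Socs2, known as a brake on growth hormone signalling and a STAT5-induced gene, stood at 47.1, 47.4 and 43.1 CPM in KO libraries, against 56.3, 52.3 and 55.3 CPM in WT libraries. The groups did not overlap, and the log2 fold change was -0.25 ± 0.050 (95% interval -0.36 to -0.15), 16.1% lower.

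The start-site windows of these genes are shown because they hold, or lack, the motifs of the STAT and interferon pathways. RefSeq's GRCm38.p6 promoter table held 7 of the 10 members, and the 250 bases before each start were searched on both strands for the STAT motif TTCNNNGAA, the interferon-response motif GAAANNGAA and the E-box CACGTG, the motif bound by USF1 and USF2. Over 32851 such windows, 7.02% held the STAT motif, 7.13% the interferon-response motif and 6.02% the E-box. The Socs1 window (chr16:10785537-10785786, minus strand) held 2 overlapping interferon-response motifs, in capitals, from 83 to 69 bases before the start. The Socs3 window held 1 STAT motif from 154 to 146 bases before the start, shown in capitals within 30 bases (chr11:117969501-117969530, minus strand). A short stretch after this Socs3 start was not found in any GENCODE M21 transcript of the gene. The distances given for Socs3 thus rest on the RefSeq start alone. The Cish window (chr9:107296409-107296658, plus strand) and the Spsb1 window (chr4:149955007-149955256, minus strand), printed for the most abundant member and the member with the largest difference, held none of the motifs. Only the 250 bases before 1 listed start of each gene were searched. Motifs elsewhere in the Cish and Spsb1 promoters would thus be missed. Of the 11 windows of these 7 genes, some of which overlap, the E-box was present in 1, at an alternative start of Spsb3. A short stretch after that Spsb3 start was likewise not found in any GENCODE M21 transcript of the gene. A match is a description of letters, and binding was not measured here.
Socs1: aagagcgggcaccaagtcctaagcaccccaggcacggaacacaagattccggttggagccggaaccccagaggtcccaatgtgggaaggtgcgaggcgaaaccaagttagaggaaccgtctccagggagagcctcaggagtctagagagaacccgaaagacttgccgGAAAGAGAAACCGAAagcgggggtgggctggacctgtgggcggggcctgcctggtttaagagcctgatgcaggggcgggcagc
Socs3: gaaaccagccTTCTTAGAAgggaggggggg
Cish: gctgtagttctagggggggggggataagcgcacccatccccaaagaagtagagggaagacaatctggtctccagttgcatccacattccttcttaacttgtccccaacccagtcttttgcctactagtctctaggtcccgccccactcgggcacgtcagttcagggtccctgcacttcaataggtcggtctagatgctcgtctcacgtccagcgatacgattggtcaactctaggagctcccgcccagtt
Spsb1: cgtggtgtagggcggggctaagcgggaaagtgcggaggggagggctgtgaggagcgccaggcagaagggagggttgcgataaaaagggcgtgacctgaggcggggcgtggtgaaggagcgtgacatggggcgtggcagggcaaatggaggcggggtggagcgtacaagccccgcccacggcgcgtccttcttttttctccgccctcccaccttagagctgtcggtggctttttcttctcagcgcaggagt

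Cish, the STAT5-induced brake on IL-2 and IL-15 responses, stood at 275, 271 and 274 CPM in KO replicates 1, 2 and 3, against 273, 276 and 273 CPM in WT replicates 1, 2 and 3. The groups overlapped, and the 95% interval of the log2 fold change (-0.003 ± 0.025, SE) ran from -0.055 to 0.050, so changes of more than 3.76% down or 3.52% up lay outside it. Replicates differed by less than counting error predicts, with coefficients of variation of 0.786% in KO and 0.647% in WT libraries beside 1.02% from counting alone. Because Cish was level while Socs1, Socs2 and Socs3 were lower, the share of Cish in the summed FPKM of the 7 SOCS and Cish genes was 57.1% in KO and 52.2% in WT libraries.

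Socs4, Socs5 and Socs7, whose roles in T cells are less well known, were not called. Socs4, linked to epidermal growth factor receptor turnover, stood at 53.3, 59.5 and 46.7 CPM in KO libraries, against 56.3, 56.7 and 57.1 CPM in WT libraries. The WT values fell inside the KO range, and the KO coefficient of variation of 12.0% exceeded the counting error of 2.31%. Its log2 fold change was -0.09 ± 0.060 (95% interval -0.22 to 0.03), and without KO replicate 2 it passed the threshold at -0.18 (edgeR adjusted p = 0.0189). Socs5, known as an inhibitor of IL-4 receptor signalling, stood at 9.53, 11.1 and 9.29 CPM in KO libraries, against 9.19, 9.11 and 8.93 CPM in WT libraries. Every KO value was above every WT value by a small margin, but the log2 fold change of 0.13 ± 0.102 (95% interval -0.08 to 0.35) did not pass. Socs7, an adaptor that binds NCK and insulin receptor substrates, stood at 43.7, 44.5 and 46.9 CPM in KO libraries, against 44.2, 43.5 and 40.3 CPM in WT libraries. The groups overlapped, and its log2 fold change was 0.08 ± 0.051 (95% interval -0.03 to 0.18).

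**Figure D3:**
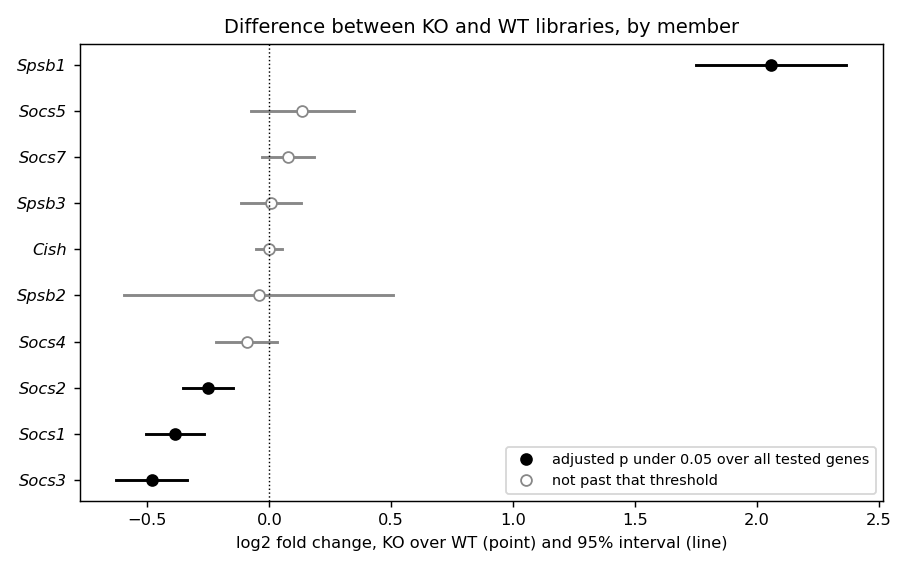
Log2 fold change of KO over WT for each member (point) with its 95% interval from the edgeR fit (line); filled points passed an adjusted p of 0.05 over all tested genes. Spsb1 stands alone at 2.06, Socs1, Socs2 and Socs3 lie below 0, and the intervals of the other 6 members span 0.

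Among the SPSB genes, Spsb1 encodes a ubiquitin ligase adaptor known to bind inducible nitric oxide synthase and, in human cells, the type II TGF-β receptor. It had 357, 337 and 275 counts in KO replicates 1, 2 and 3, against 72, 79 and 81 counts in WT replicates 1, 2 and 3. As CPM these were 10.2, 9.41 and 7.91 in KO libraries, against 2.02, 2.27 and 2.30 in WT libraries. The lowest KO library was thus well above the highest WT library. The log2 fold change was 2.06 ± 0.149 (SE), a 4.16-fold higher level with a 95% interval from 3.36-fold to 5.15-fold. Spsb1 made up 15.4% of the summed FPKM of the 3 SPSB genes in KO and 4.18% in WT libraries.

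Spsb2, also an adaptor for inducible nitric oxide synthase, stood at 2.39, 1.68 and 1.78 CPM in KO libraries, against 1.55, 1.75 and 2.73 CPM in WT libraries. Its groups overlapped, and at 55 to 96 counts per library the 95% interval ran from -0.60 to 0.51 around a log2 fold change of -0.04 ± 0.266. Its coefficients of variation were 19.8% in KO and 31.5% in WT libraries, beside 12.1% and 11.9% from counting alone. In GENCODE M21, 34 exonic bases of Spsb2 lie opposite the far more abundant glycolytic gene Tpi1 (682.5 CPM in KO and 717.7 CPM in WT libraries), and no label says whether reads were counted by strand. Spsb3, an adaptor whose known targets in human cells include nuclear cGAS, stood at 35.1, 34.7 and 36.9 CPM in KO libraries, against 32.4, 37.9 and 36.0 CPM in WT libraries. The KO values lay within the WT range, with a log2 fold change of 0.01 ± 0.059 (95% interval -0.12 to 0.13). Opposite Spsb3 lies Eme2, and 62.3% of the exonic bases of Spsb3 are shared with Eme2 in GENCODE M21. Reads within these shared bases cannot be assigned to Spsb3 or to Eme2 without strand. Eme2 itself was listed at 5.97 CPM in KO and 5.82 CPM in WT libraries.

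Genes of proteins that SPSB proteins bind were not called beside Spsb1. Of 5 such genes on the list, 3 were tested and 0 were called by edgeR, DESeq2 or limma-voom, and 0 had an unadjusted p under 0.05 by edgeR. Of all tested genes, edgeR called 17.3%, so 0 of 3 says little. The levels of the proteins themselves were not measured. Tgfbr2, the type II TGF-β receptor, averaged 175 CPM in KO and 182 CPM in WT libraries (log2 fold change -0.05 ± 0.029; edgeR adjusted p = 0.222). Pawr, which encodes the apoptosis regulator PAR-4, averaged 0.738 CPM in KO and 0.568 CPM in WT libraries (0.38 ± 0.474; adjusted p = 0.663). Nos2, the inducible nitric oxide synthase gene, was under the count filter, at 0.228 CPM or less in every library. The genes whose pattern over the 6 libraries was most like that of Spsb1 were Ddx1, Strap, Crtam, Pros1 and Plxna1, with Pearson correlations of log2 CPM from 0.997 for Plxna1 to 0.998 for Ddx1 among 10413 ranked genes. For Socs3 they were Lef1, Eeig1, Cdkn2d, Pkn2 and Sec11c, from 0.994 for Sec11c to 0.997 for Lef1. With 2 groups in 6 libraries, such values mostly restate the group difference and share library and depth, and they are given as a description.

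Genes of the ubiquitin ligase that SOCS-box proteins share were mostly not called. Of 14 ligase partners and neddylation enzymes, 1 was lower and 13 were not called, and their median log2 fold change was 0.02. Of all tested genes, edgeR called 17.3% (10.1% lower and 7.23% higher), so 1 of 14 says little. The same shares are the background for the counts of the lists that follow. The lower ligase gene was Arih2, which works with neddylated cullin 5, at -0.14 ± 0.039 (edgeR adjusted p = 0.0119). Ube2m, an enzyme of neddylation, did not pass at 0.08 ± 0.041 (adjusted p = 0.175). Elob, Eloc, Cul5 and Rnf7, chosen after their values were seen as the core of the complex, had log2 fold changes of 0.07, -0.05, 0.03 and 0.02.

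Most cytokine receptor genes were lower beside Socs1 and Socs3, while JAK and STAT genes were mixed. Of 19 tested cytokine receptor genes, 14 were lower and 5 were not called (median log2 fold change -0.22). The interferon-γ receptor gene Ifngr1, whose signal Socs1 limits, averaged 368 CPM in KO and 559 CPM in WT libraries (-0.60 ± 0.023; edgeR adjusted p = 8.97e-15). Il2ra, Il18r1 (a member of the IL-1 receptor family) and Il12rb1 changed by -0.32, -0.35 and -0.33. Among 10 JAK and STAT genes, 4 were lower and 1 was higher, with a median of -0.02. Stat2, Stat3 and Jak3 were lower at -0.26, -0.14 and -0.13, and Stat4 was higher at 0.19. Stat5a and Stat5b, the inducers of Cish and Socs2, chosen after their values were seen, did not pass at 0.02 and -0.04.

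Most tested genes on the interferon-induced, STAT5 target and STAT3 target lists were lower, as were Socs1 and Socs3, while Cish was level. Of 13 interferon-induced genes, 12 were lower and 1 was not called (median -0.33), among them Gbp2, Irf1 and Nlrc5 at -0.89, -0.39 and -0.38. Socs1, itself interferon-induced, had a log2 fold change of -0.39, within the range of this list from -1.22 to 0.04. A link between Socs1 and these genes was not tested. Of 13 STAT5 targets, 9 were lower and 3 were higher (median -0.22), with Osm at -0.87, Myc at -0.62 and Gzmb at -0.22, while the STAT5-induced Cish was at -0.003. STAT3 targets had 4 of 6 tested genes lower and 2 not called (median -0.23), including Maf at -0.62, Junb at -0.24, Hif1a at -0.15 and Batf at -0.18, the last with an edgeR adjusted p of 0.0496. These 3 lists and the receptor list were chosen with earlier results known, and some genes stand on more than 1 list (Il2ra, Il23r and Usp18).

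**Figure D4:**
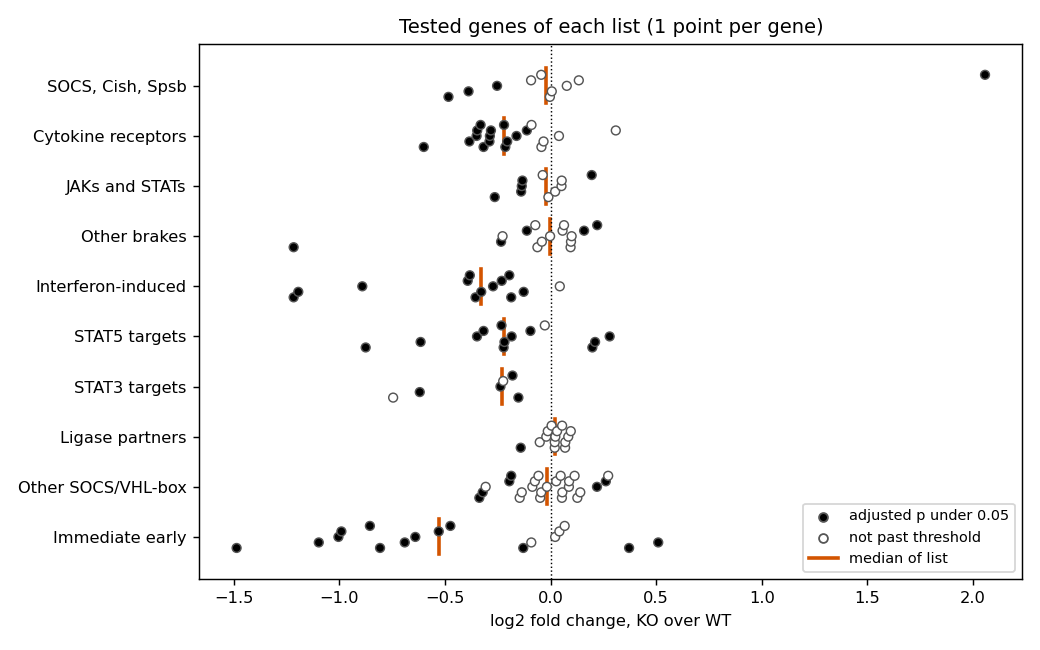
Log2 fold change of KO over WT for each tested gene of the SOCS-box members and of 9 gene lists (1 point per gene, filled where the adjusted p was under 0.05), with the median of each list as an orange line. Spsb1 lies to the right of every other gene shown, and the medians are lowest for the immediate early genes (-0.53) and the interferon-induced genes (-0.33).

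Other brakes on the same pathway did not share 1 direction with Socs1, Socs2 and Socs3. Of 15 such genes, 3 were lower and 2 were higher (median -0.002). Usp18, a brake on the type I interferon receptor, was lower at -1.22 ± 0.085, and the receptor phosphatase gene Ptprj at -0.23. The phosphatase genes Ptpn6 (SHP-1) and Ptpn1 were higher at 0.22 and 0.16, against the direction of Socs1 and Socs3.

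Socs3 and Socs1 are also quickly induced genes, and most tested immediate early genes, though not all, were lower as well. Of 17 tested immediate early genes, a list that also serves as a sign of handling, 11 were lower and 2 were higher (median -0.53). Egr1, Nr4a1, Ier2 and Zfp36 were at -0.99, -1.49, -0.64 and -0.47. The 2 higher genes, named for their direction after their values were seen, were Dusp1 at 0.51 and Dusp2 at 0.37. Myeloid cells, which express Socs3, were scarce. Their 11 markers with a row summed to 7.25 to 8.28 CPM in KO and 8.94 to 11.7 CPM in WT libraries, and 2 of 3 tested markers were lower, Cd68 and Itgam, while Xcr1 was not called at a log2 fold change of 1.42 (0.769 CPM in KO and 0.283 CPM in WT libraries). Cd68 alone averaged 6.20 CPM in KO and 8.36 CPM in WT libraries, Lyz2 and Cd14 stood at 0.403 CPM or less in every library, and Csf1r was at 0 in all KO libraries and in WT replicate 2. The part of handling, of other cells or of the lower γδ T cell markers in the lower Socs1, Socs2 and Socs3 levels was not tested. Within a group, KO replicate 3 had the lowest CPM of the KO libraries for 6 of the 10 members and WT replicate 1 the lowest of the WT libraries for 6.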

How the data were processed

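Per the labels' protocols, TRIzol was used for total RNA and a VAHTS Universal V6 kit for the libraries. The build GRCm39 and the tools HISAT2, HTSeq and fastp come from the submitters' processing notes. No version, annotation or strand setting is given there. The deposited gene counts are whole numbers without normalization for 19390 symbols, and the authors' deposited FPKM scale them by column total and gene length. The titles gave groups and replicate numbers. edgeR 4.0.16 (R 4.3.3) tested the counts (TMM factors 0.994 to 1.01, filterByExpr by group, glmQLFit and glmQLFTest on the group), which kept 12810 genes, and the genes left out held 0.0366% of all counts. Adjusted p are Benjamini-Hochberg values over these genes, with a threshold of 0.05. Intervals are 95% intervals of that fit, and SE is |log2 fold change| divided by √F. The biological coefficient of variation was 4.16%. CPM are counts over the TMM-scaled library size. No label says that libraries came from separate animals, so p-values measure only the spread between these libraries. Chi-square values per degree of freedom between libraries of 1 group ran from 3.28 to 7.24, above the sampling noise. Each library was counted as 1 sample, but these values do not show that libraries came from separate animals. Members and gene lists were chosen with earlier results of these data known, and 1 gene of 2 lists is not reported here. Named genes outside the members are, per list, up to 4 called genes by smallest p (2 genes by smallest p if fewer than 2 were called). The marker lists are given by their 2 most abundant genes and, except for the γδ T cell list, by their sums. Other marker genes were named for their calls or values. For the 2 members with the largest absolute fold change at a mean of at least 2 CPM, the 5 genes with the highest correlation were named. Other settings tried were scaling by RLE, upper quartile or total count, no filter, at least 1 CPM in 3 libraries, a robust fit, DESeq2 1.42.0, limma-voom (limma 3.58.1), the replicate number as a block, and each library left out. The fit was also run on counts simulated from the means and dispersions of these data, with 200 changed genes. The outcome of that run is not given, and no result here rests on it. Promoter windows are RefSeq's for GRCm38.p6, and exon overlaps are by name from GENCODE M21 on GRCm38, which is not the build of the counts.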

Additional observations from a re-analysis of the deposited data

How the results depend on the processing

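Spsb1 (log2 fold changes 1.98 to 2.15), Socs1 (-0.42 to -0.34), Socs2 (-0.28 to -0.21) and Socs3 (-0.55 to -0.44) kept their direction and their call in all 15 alternatives. With each library left out, 1660 to 2256 genes and 4 to 5 members were called, beside 2219 and 4; the fifth member was Socs4, without KO replicate 2. The other 9 alternatives called 1969 to 2378 genes and 4 members. Near 0, directions turned, and with each library left out Cish ran from -0.0063 to 0.0047, Spsb2 from -0.216 to 0.24 and Spsb3 from -0.053 to 0.0586. Cish was at 0.0081 by upper-quartile scaling, 0.0071 by total-count scaling, 0.0043 without KO replicate 2 and 0.0047 without WT replicate 2. Spsb2 was at 0.055 without KO replicate 2, 0.016 without KO replicate 3 and 0.24 without WT replicate 3. Spsb3 was at -0.020 without KO replicate 3 and -0.053 without WT replicate 1. The cause of these turns was not tested. With the replicate number as a block, 1969 genes and 4 members were called. Deviations of same-numbered KO and WT libraries correlated at 0.048, -0.044 and -0.072, so the numbers were not taken to pair the libraries. Counting error was largest for Spsb2, at 12.1% in KO and 11.9% in WT libraries, below its replicate spread of 19.8% and 31.5%. The list of other SOCS-box and VHL-box receptors had 6 called genes by edgeR and 3 by DESeq2.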

Other observations

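Other SOCS-box and VHL-box substrate receptors, listed beside the SOCS, Cish and Spsb genes, were mixed. Of 25 tested genes, 2 were higher and 4 were lower in KO libraries by edgeR, beside 7.23% and 10.1% of all tested genes. The median log2 fold change of the list was -0.02, and DESeq2 called 3 of its genes. Socs6, the SOCS relative outside the 10 genes, was at 26.3, 27.5 and 23.5 CPM in KO replicates 1, 2 and 3, against 21.3, 22.1 and 23.1 CPM in WT replicates 1, 2 and 3. It was higher at a log2 fold change of 0.22 ± 0.069 (SE; edgeR adjusted p = 0.0296), opposite in sign to Socs1, Socs2 and Socs3. Tulp4, a tubby-like gene with a SOCS box, was higher at 0.26 ± 0.070 (adjusted p = 0.011 by edgeR). The ankyrin-repeat genes Asb2 and Asb13 were lower at -0.32 and -0.34, close in size to Socs1. Spsb4 and Rab40b were not analysed here.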
